A study of Mus musculus with 4 samples.

Results

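The Lin28, Myc and Igf2bp axis was taken as 10 genes: Lin28a, Lin28b, Hmga1, Hmga2, Igf2bp1, Igf2bp2, Igf2bp3, Mycn, Myc and Mycl1. Members were every non-control array probe that carried one of these names (Lin28a appears under its older name Lin28), which gave 15 probes of 39395, among the 22788 genes with a current symbol on the array. Hmga1 had 3 probes, Lin28b, Hmga2 and Igf2bp2 had 2 each and the other genes 1. All 10 genes were represented and all 15 probes entered the test, in which 30012 probes were compared.

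RNA came from mouse embryonic kidneys at E15.5, from a hybrid of the strains 129 and C57BL/6 that carried a green fluorescent reporter named Six2GFP. Dissected kidneys were sorted by fluorescence into a Six2GFP-positive population, which holds the nephron progenitors, and a Six2GFP-negative population of cells without the signal, and each was measured on 2 one-colour Agilent arrays. The sources used here name neither the construct behind the reporter nor the number of animals behind each array, so the p-values measure only the spread between these arrays, which may be technical. A description field speaks of tamoxifen and the cell type field calls both populations nephron progenitors; the sorting protocol mentions no drug, and the groups follow the titles.

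LIN28A and LIN28B are RNA-binding proteins of embryonic cells that block the maturation of the let-7 microRNAs, and mature let-7 in turn silences Lin28, Hmga2, Igf2bp and Myc family messengers. HMGA1 and HMGA2 are small chromatin proteins that bind AT-rich DNA through AT-hooks. The IGF2BP proteins bind messengers such as those of Igf2 and Myc. The MYC proteins pair with MAX on E-boxes and raise genes of ribosome production and growth. In the kidney the axis is known for holding nephron progenitors in an early state, and prolonged LIN28 activity has been linked to Wilms tumour.

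The let-7 family recognises its targets through bases 2 to 8, the seed. Of 11 family names in the RefSeq table for GRCm38.p6, 10 shared 1 seed. The following are shown because that seed defines the target site discussed next, and capitals mark the seed.
mmu-let-7a-5p: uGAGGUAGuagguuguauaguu
mmu-let-7c-5p: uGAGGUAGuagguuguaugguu
mmu-let-7g-5p: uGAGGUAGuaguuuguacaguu
mmu-miR-98-5p: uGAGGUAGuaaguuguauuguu
Mature microRNAs were not analysed here. The reverse complement of the seed in DNA letters, CTACCTC, read on the probe strand alone, occurred in 150 of 39395 probes (0.381%) and in 1 of the 15 member probes, that of Hmga2 at mm9 chr10:119798739-119798798 on the minus strand. A 30-base stretch of this probe holds the match, in capitals.
Hmga2 probe A_52_P300730: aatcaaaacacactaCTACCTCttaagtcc
The match describes the letters of the probe and is not evidence of binding in these cells.

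Six2, the transcription factor that keeps progenitors undifferentiated, was 57.1-fold higher in Six2GFP-positive cells, and Cited1, a marker of the least differentiated progenitors, was 28.3-fold higher (limma adjusted p = 0.000479 and 0.000544). Of 15 nephron progenitor markers, 13 were higher. Most markers of other cell types were higher in Six2GFP-negative cells: 13 of 14 ureteric bud genes, 13 of 14 stromal genes, 11 of 12 endothelial genes, 11 of 12 erythroid genes and 14 of 15 early nephron genes were lower in Six2GFP-positive cells, while 5 of 13 leukocyte genes were. The neural and neural crest list went both ways, with 4 of 10 higher and 3 lower and log2 differences from -5.18 to 4.16. Its sum was higher in Six2GFP-positive cells, at 4.36 to 4.44 against 2.14 to 2.15. The summed signal of the erythroid list, as a multiple of each array's 75th percentile, came to 9.89 and 14.7 for Six2GFP-positive cells against 283 and 265 for Six2GFP-negative cells. That of stroma was 17 to 19.8 against 164 to 177, of ureteric bud 21.9 to 23.1 against 54 to 63.5, of early nephron at most 10.9 against 55.9 to 65.9, of endothelium 9.47 to 9.68 against 35.9 to 36.7 and of leukocytes 16.8 to 20.6 against 21.2 to 27.3. Gata1 and Rhag of the erythroid list were not well above background on either positive array. The part of these cell types in the differences below was not tested, and fewer cells of a type and less RNA per cell cannot be told apart in such samples.

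Values are given as log2 of the processed signal minus the array's 75th percentile, a level relative to the array and not to other probes. Differences are Six2GFP-positive minus Six2GFP-negative with limma's standard error (SE, n = 2 arrays per group), and a probe was called at a Benjamini-Hochberg adjusted p of 0.05 over all probes. Of all probes tested 40.7% were called, 22.7% as higher and 18% as lower. Among the 15 member probes 4 were higher (Myc, both probes of Hmga2 and 1 of Igf2bp2) and 4 lower (both probes of Lin28b, Mycl1 and Igf2bp3), which is 8 probes called of 15. The dimmer Lin28b probe entered the test only through the Six2GFP-negative arrays, so only a bound is given for it below. With a filter on all 4 arrays it was not tested, and of 14 member probes 4 were higher and 3 lower. The median difference of the 15 member probes was 0.04, and that of all probes 0.17. The LIN28, HMGA, IGF2BP and MYC families each held a gene with a called probe and a gene that did not pass the test. The largest differences were in LIN28 and MYC.

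**Figure D1:**
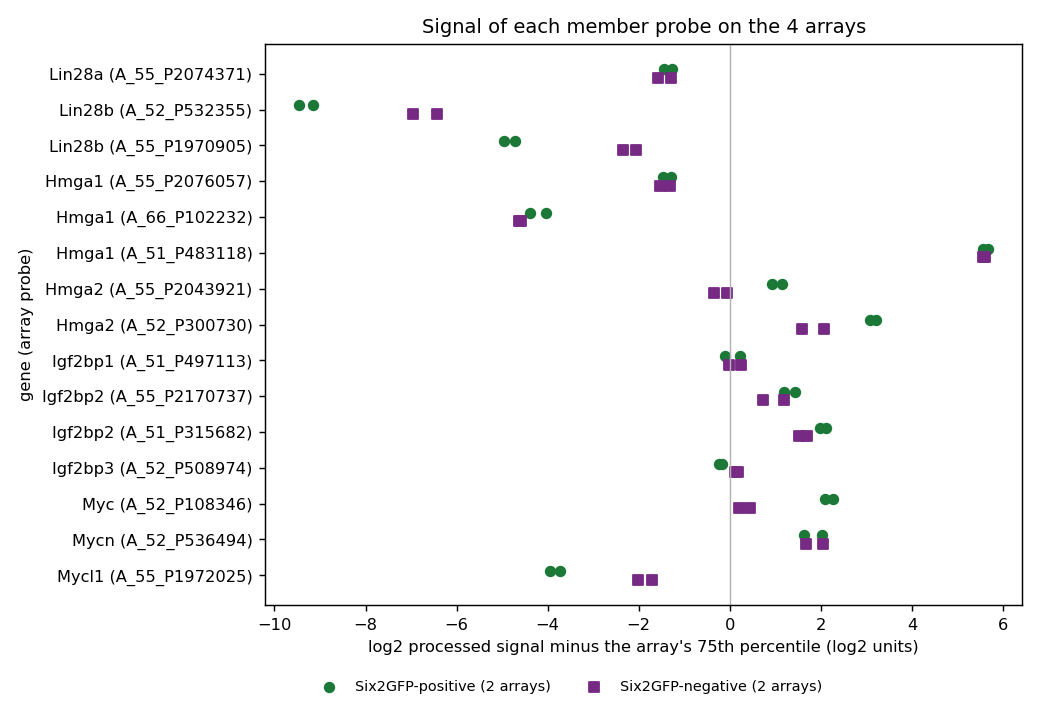
Log2 processed signal minus the 75th percentile of its array (x axis) for each of the 15 member probes (y axis); circles are the 2 Six2GFP-positive arrays and squares the 2 Six2GFP-negative arrays. Both symbols of Lin28b and Mycl1 are separated with the circles to the left, those of Myc and Hmga2 with the circles to the right, and those of Lin28a, Igf2bp1 and Mycn overlap.

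Lin28b, the member with the largest difference, was lower in Six2GFP-positive cells. Its brighter probe, at mm9 chr10:45096468-45096527 on the minus strand, read -4.71 and -4.95 on positive arrays 1 and 2 and -2.35 and -2.07 on negative arrays 1 and 2, or processed intensities of 57.6 and 47.9 against 335 and 403. Both positive arrays were low and the groups did not overlap, which was so for 76% of all probes tested. The level was 6.16-fold lower (log2 difference -2.62 ± 0.15, limma adjusted p = 0.00132). The other probe, at chr10:45140412-45140471, read -9.45 and -9.15 on the positive arrays, where it was not well above background, against -6.42 and -6.96 on the negative arrays. For this probe only a bound can be given, at least 1.35-fold lower, set against the lowest signal well above background on each positive array; the fit gave -2.62 ± 0.23 (adjusted p = 0.00354), and after normexp background correction with the 75th percentile its difference was -0.12 (adjusted p = 0.28). The brighter probe stayed called in all 13 alternative settings, at -2.76 to -1.64.

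Lin28a, the paralogue found in pluripotent cells, was well above background on all 4 arrays and did not pass the test. Its probe, at mm9 chr4:133559245-133559304 on the minus strand, read -1.28 and -1.45 on the positive arrays against -1.30 and -1.58 on the negative arrays. The groups overlapped, with a difference of 0.07 ± 0.14 (limma adjusted p = 0.707). Set against each other within each array, the log2 ratio of Lin28b to Lin28a was 2.70 lower in Six2GFP-positive cells (change -2.70), with every positive array below every negative array by 2.38 to 3.01 (pairwise values -2.38 to -3.01). A shift common to all probes of an array cancels in this ratio, while one that depends on intensity does not. All such ratios are given with the 75th percentile scaling alone, and their pairwise ranges do not cover other settings. After normexp correction with the 75th percentile the brighter Lin28b probe gave -1.71 and Lin28a 0.07. An exact permutation test of 2 arrays against 2 cannot give a two-sided p under 0.333, so none of the 8 such pairs of paralogues was tested.

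Hmga2, the classical let-7 target of the axis, was higher in Six2GFP-positive cells at both of its probes. The probe at mm9 chr10:119800621-119800680 read 0.92 and 1.15 on the positive arrays against -0.34 and -0.06 on the negative arrays. The probe shown above, with the seed match, read 3.08 and 3.21 against 1.59 and 2.06. On both probes the positive arrays stood above both negative arrays. The level was 2.35-fold higher at the first (1.23 ± 0.15, limma adjusted p = 0.00803) and 2.50-fold at the second (1.32 ± 0.19, adjusted p = 0.0124). Without positive array 2 the second probe missed the threshold (1.25, adjusted p = 0.0565), while the first was called in all 13 alternatives.

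Hmga1, the paralogue of broader expression, did not pass the test at any of its 3 probes. The brightest, at mm9 chr17:27700543-27700602, read 5.56 and 5.67 on the positive arrays against 5.56 and 5.60 on the negative arrays, a difference of 0.04 ± 0.09 (limma adjusted p = 0.754). The sign of this difference depended on the scaling: with quantile normalization it was -0.30 (adjusted p = 0.0547), and with normexp and quantile normalization -0.33 (adjusted p = 0.0201), a call in the lower direction. The probe at chr17:27696588-27696647 read -1.47 and -1.30 against -1.54 and -1.32 (0.04 ± 0.13, adjusted p = 0.811). The dim probe at chr17:27693913-27693973 read -4.38 and -4.04 against -4.59 and -4.64; its groups did not overlap, and its difference of 0.40 ± 0.15 (adjusted p = 0.0964) passed in 4 of the 13 alternatives, those that changed the scaling or background correction. Within arrays, the log2 ratio of Hmga2 to Hmga1, each by its brightest probe, was 1.28 higher in Six2GFP-positive cells, with pairwise values from 1.05 to 1.51.

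The 3 Igf2bp genes differed little between the populations. Igf2bp1, which in mouse is the paralogue most tied to fetal growth, read -0.10 and 0.22 on the positive arrays against -0.02 and 0.25 on the negative arrays at mm9 chr11:95824526-95824585. Its groups overlapped (-0.06 ± 0.17, limma adjusted p = 0.803). Igf2bp2 read 1.98 and 2.12 against 1.51 and 1.70 at chr16:22059260-22059319, a 1.36-fold higher level (0.45 ± 0.12, adjusted p = 0.0485). Its second probe, at chr16:22059582-22059641, read 1.20 and 1.44 against 0.73 and 1.20 and missed the threshold (0.36 ± 0.20, adjusted p = 0.225). Igf2bp3, at chr6:49035710-49035769, read -0.23 and -0.17 against 0.12 and 0.19, a 1.28-fold lower level (-0.35 ± 0.09, adjusted p = 0.0415).

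Both Igf2bp calls lay just inside the threshold and were lost easily. That of Igf2bp2 was lost in 8 of 13 alternatives, with adjusted p from 0.0789 to 0.188 when any of the 4 arrays was left out. That of Igf2bp3 was lost in 7, with adjusted p from 0.0937 to 0.176 when any array was left out, and its difference was -0.09 with centring on the array median. The direction of the 2 genes was kept in all of these settings. Within arrays, the log2 ratio of Igf2bp2 to Igf2bp3 was 0.80 higher in Six2GFP-positive cells, with pairwise values from 0.70 to 0.91, that of Igf2bp2 to Igf2bp1 0.50 higher (0.38 to 0.63) and that of Igf2bp1 to Igf2bp3 0.30 higher (0.07 to 0.52).

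Myc had the largest upward difference of the axis. Its probe, at mm9 chr15:61821417-61821476 on the plus strand, read 2.08 and 2.26 on the positive arrays against 0.21 and 0.44 on the negative arrays, or processed intensities of 6410 and 7090 against 1980 and 2300. Both positive arrays were high and the groups stood well apart. Myc was 3.59-fold higher in Six2GFP-positive cells (1.84 ± 0.13, limma adjusted p = 0.00208), and it was called in all 13 alternatives, at 1.71 to 2.11.

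Mycn, the paralogue known for its place in embryonic progenitors, was bright on all 4 arrays and did not pass the test. Its probe at mm9 chr12:12943193-12943252 read 1.62 and 2.03 on the positive arrays against 1.68 and 2.04 on the negative arrays. On both sides array 2 was the higher one and the groups overlapped (-0.04 ± 0.21, limma adjusted p = 0.903). The difference was 0.23 with centring on the array median, and its sign turned there and with 2 of the arrays left out, without a call in any setting.

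Mycl1, the third gene of the family, was lower in Six2GFP-positive cells. Its probe at mm9 chr4:122679535-122679594 read -3.94 and -3.73 on the positive arrays against -2.01 and -1.70 on the negative arrays. The level was 3.95-fold lower (-1.98 ± 0.15, limma adjusted p = 0.00256), and it was called in all 13 alternatives, at -2.13 to -1.34. Within arrays, the log2 ratio of Myc to Mycl1 was 3.82 higher in Six2GFP-positive cells, with pairwise values from 3.77 to 3.88, that of Myc to Mycn 1.88 higher (1.69 to 2.06) and that of Mycn to Mycl1 1.95 higher (1.82 to 2.08). After normexp correction with the 75th percentile Myc gave 1.81 and Mycl1 -1.44. Of the MYC family, Myc was called higher and Mycl1 lower while Mycn did not pass, and the ratios between the 3 genes were not tested.

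**Figure D2:**
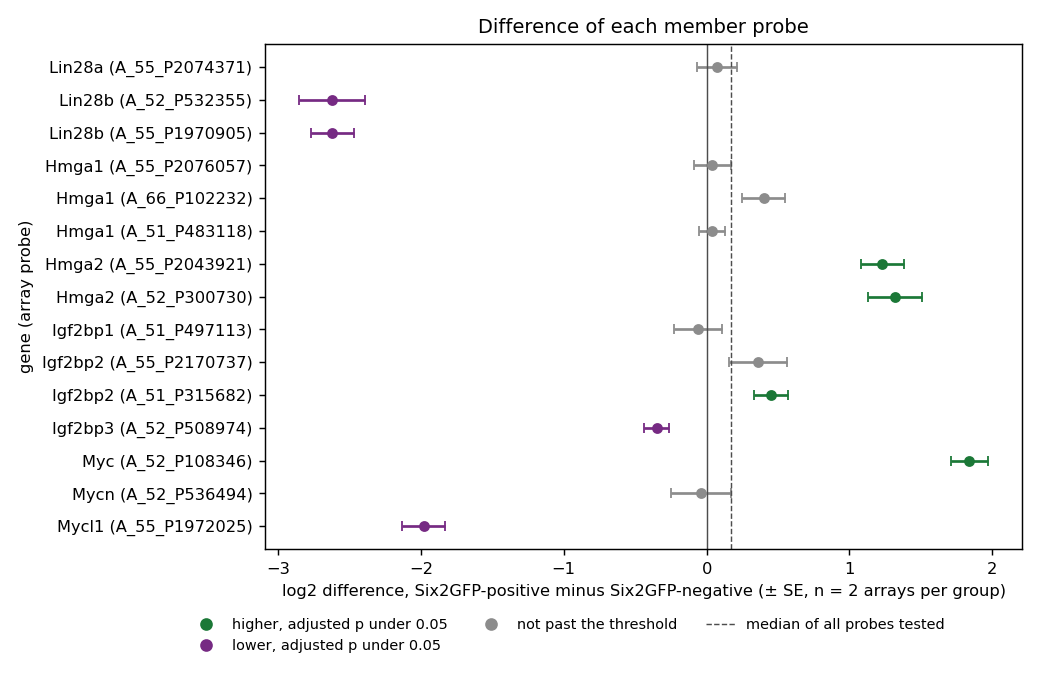
Log2 difference, Six2GFP-positive minus Six2GFP-negative, with its standard error for each of the 15 member probes (n = 2 arrays per group); green marks probes called higher, purple those called lower and grey those not past the threshold, and the dashed line is the median of all probes, 0.17. Myc (1.84) and Hmga2 lie farthest to the right and Lin28b (-2.62) and Mycl1 (-1.98) farthest to the left.

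**Figure D3:**
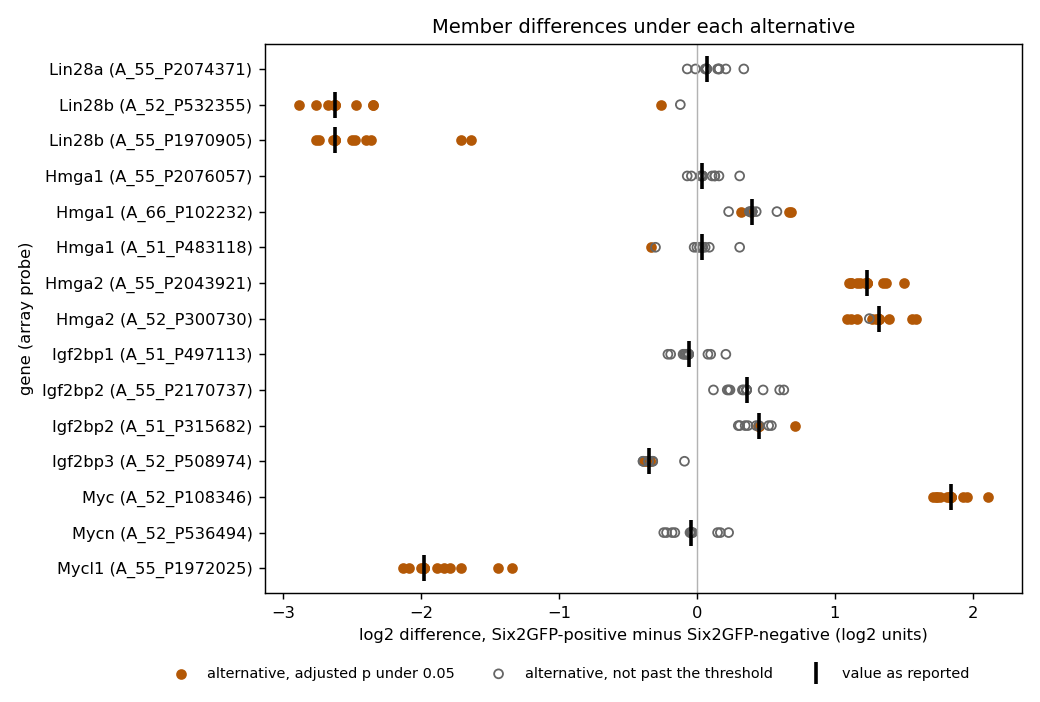
Log2 difference of each member probe under each alternative setting; filled circles passed an adjusted p of 0.05, open circles did not, and the black bar is the value as reported. All circles of Myc, Mycl1 and the brighter Lin28b probe are filled, while Lin28a, Igf2bp1 and Mycn have circles on both sides of 0 and none filled.

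Promoters were read for the E-box CACGTG, the site of MYC and MAX pairs, which is its own complement. RefSeq promoters (GRCm38.p6, 250 bases before to 50 after the start) were listed for 8 of the 10 genes; Myc and Igf2bp1 had none. The motif was found in 2 of these 8 genes, Lin28b and Igf2bp3. Over the whole table it was in 2349 of 32851 promoters (7.15%), a share of promoters and not of genes, since a gene such as Hmga1 had more than 1 listed. The matches before the start site are shown because they are the only such letters found, outside the second match of Igf2bp3, in the promoters read; capitals mark the motif.
Lin28b: aattgacagagtCACGTGtgctcaggggcc
Igf2bp3: gctgggattcctCACGTGagacgttgattt
The first lies in the promoter at GRCm38.p6 chr10:45470152-45470451 on the minus strand, 49 bases before the start, and the second in that at chr6:49214905-49215204 on the minus strand, 23 bases before it. Igf2bp3 held a second match 6 bases after the start. A match is not a bound site, and no match in a window of 300 bases says only that these letters are not there.

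The partners and targets of the axis were read from 8 gene lists, where a gene stood by its brightest probe kept. Of all 18311 genes 43.7% were called, 22.5% as higher and 21.1% as lower, with a median difference of 0.15. The lists hold 181 genes, of which 179 were tested; 79 were higher and 10 lower. The lists were drawn from textbook knowledge with earlier results of these data known, and no test of a list was made. The counts rest on the full set of arrays: without any 1 of them between 9 and 17 listed genes were higher, and over all probes the number called higher went from 6810 to between 1838 and 2740. Of the 22 listed genes named by rule below, Trim71, Col1a2, Cdk6, Mapk4, Npm3 and Gnl3 kept their call whichever array was left out, and the other 16 lost it without at least 1 array. Cdk6 and Il6 were not well above background on the positive arrays and entered the test only through the Six2GFP-negative arrays. Igf2, H19, Dicer1, Max, Tut4, Dis3l2 and Ccnd1 were chosen outside that rule, after their values were seen.

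Genes of let-7 processing and the partners of LIN28 lay slightly above the median of all genes. Of 20 tested, 9 were higher and none lower at an adjusted p, with a median of 0.27. Trim71, an RNA-binding ubiquitin ligase that is itself a let-7 target, read -1.67 and -1.46 on the positive arrays against -2.76 and -2.52 on the negative arrays, 2.11-fold higher (1.08 ± 0.14, limma adjusted p = 0.00971), though its second probe gave 0.11. Syncrip, an RNA-binding partner of both LIN28 and IGF2BP complexes, was 1.80-fold higher (0.85 ± 0.12, adjusted p = 0.0121) and gave 0.38 with its second probe. Tut4 and Dis3l2, the enzymes that tail and degrade the let-7 precursor bound by LIN28, were higher by 0.39 ± 0.09 and 0.48 ± 0.10 (adjusted p = 0.0311 and 0.0274), and the let-7 processing enzyme gene Dicer1 gave -0.08 ± 0.16 (adjusted p = 0.699).

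Of 26 let-7 target genes tested, 5 were higher and 7 lower, with a median of 0.10, where 22.5% and 21.1% of all genes were higher and lower; under quantile normalization the median was -0.04. Arid3b, a DNA-binding protein gene, was 1.83-fold higher (0.87 ± 0.13, limma adjusted p = 0.0146), and Igf1r, the growth factor receptor gene, 1.40-fold (0.49 ± 0.10, adjusted p = 0.0254). The Arid3b call was lost without 3 of the 4 arrays (adjusted p up to 0.066), and the Igf1r call with any array left out. Col1a2, a collagen gene and also one of the stromal markers, read 1.40 and 1.26 on the positive arrays against 5.93 and 5.82 on the negative arrays, 23.4-fold lower (-4.55 ± 0.10, adjusted p = 0.000479). Il6, the cytokine gene, was not well above background on the positive arrays and entered the test only through the negative arrays, at -3.90 and -6.59. Their mean was 3.67-fold above the lowest signal well above background on the positive arrays (-7.18 and -7.06). Negative array 2 alone lay near that signal, so 3.67 is no firm bound. The fit gave -4.02 ± 0.96 (limma adjusted p = 0.0383), and the call was lost without either positive array. Over the alternative scalings and background corrections the difference ran from -4.07 to -0.78, with a call in 2. Ccnd1, a cyclin of cell cycle entry and also listed as an early nephron marker, was lower by a difference of -2.32 ± 0.11 (adjusted p = 0.000911). Col1a2 and Ccnd1 stand in marker lists whose summed signals, given above, were higher in Six2GFP-negative cells, and the part of those cells in these values was not tested.

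Among partners and target messengers of the IGF2BP proteins, 9 of 23 were higher and 2 lower, with a median of 0.29. Under quantile normalization 5 were higher and 4 lower and the median, 0.03, lay below the 0.12 of all genes. Btrc, a ubiquitin ligase gene, was 1.63-fold higher (0.71 ± 0.13, limma adjusted p = 0.0207), while its second probe gave 0.41 and was not called. Cdk6, a cell cycle kinase gene, did not rise well above background on either positive array, which makes it at least 5.58-fold lower (adjusted p = 0.00627). Mapk4 was 4.59-fold lower (-2.20 ± 0.13, adjusted p = 0.00135), against 0.15 at its second probe. Igf2 itself, the growth factor gene that names the family, read 1.13 and 0.58 on the positive arrays against 1.68 and 0.95 on the negative arrays; the groups overlapped (-0.46 ± 0.33, adjusted p = 0.322). H19, its neighbour under shared imprinting, read 6.61 and 6.67 against 6.72 and 6.81 (-0.12 ± 0.09, adjusted p = 0.329).

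Of the other HMG genes, 4 of 11 were higher and none lower at an adjusted p, with a median of 0.26, which was -0.02, with none called, under quantile normalization. Hmgb1 and Hmgb3, of the HMG-box chromatin proteins, were higher by 0.49 ± 0.12 and 0.46 ± 0.09 (limma adjusted p = 0.039 and 0.0273). Both calls were lost with any array left out, and 6 of the 7 Hmgb1 probes did not pass.

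In the MAX and MLX network, whose proteins pair with or compete against MYC, 9 of 19 were higher and 1 lower, with a median of 0.40. The MAX-binding repressor genes Mga and Mxd1 were higher by 0.71 ± 0.09 and 0.69 ± 0.10 (limma adjusted p = 0.00978 and 0.0117). Mlxipl, the glucose-responsive factor of the MLX branch, was lower (-0.78 ± 0.12, adjusted p = 0.0149). Max itself read 2.24 and 2.43 on the positive arrays against 1.92 and 2.16 on the negative arrays and did not pass (0.29 ± 0.14, adjusted p = 0.162).

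Genes of MYC turnover held 6 higher and 1 lower of 18, with a median of 0.27. Fbxo32, an F-box ubiquitin ligase gene, was 1.81-fold higher (0.86 ± 0.18, limma adjusted p = 0.0284) and Usp28, a deubiquitinase that stabilises MYC, 1.56-fold (0.64 ± 0.10, adjusted p = 0.0143). Ppp2r5a, a phosphatase subunit gene, was lower (-0.59 ± 0.09, adjusted p = 0.0155). The Fbxo32 call was lost with any array left out.

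MYC target genes of ribosome production had the highest median of the 8 lists. Of 31 tested, 24 were higher and none lower at an adjusted p, with a median of 0.56, against 0.15 over all genes. Npm3, a nucleolar chaperone gene, read 0.36 and 0.42 on the positive arrays against -0.76 and -0.78 on the negative arrays, 2.23-fold higher (1.16 ± 0.08, limma adjusted p = 0.00219). Gnl3, a nucleolar GTPase gene of stem cells, read 1.03 and 1.04 against 0.11 and 0.25, 1.80-fold higher (0.85 ± 0.10, adjusted p = 0.00657). With the 75th percentile scaling the 31 differences ran from 0.02 to 1.16. The list median stayed above that of all genes by 0.26 to 0.48 in the 13 alternatives that kept the brightest probe of a gene, while the number called fell to between 5 and 9 without any 1 array and was 20, with 1 lower, under quantile normalization.

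Of 35 MYC target genes of metabolism and growth, 15 were higher, 1 lower and 19 not past the threshold, with a median of 0.39. Hk2, the first enzyme of glycolysis, read 0.90 and 1.33 on the positive arrays against -0.03 and -0.07 on the negative arrays, 2.25-fold higher (1.17 ± 0.17, limma adjusted p = 0.013), a call lost without either negative array (adjusted p up to 0.0702). Apex1, a DNA repair endonuclease gene, was 1.63-fold higher (0.71 ± 0.10, adjusted p = 0.0106). Ccnd2, a cyclin gene in this list and among the let-7 targets, was lower (-0.55 ± 0.11, adjusted p = 0.0243), a call lost with any array left out. Without any 1 array between 0 and 5 of the list were called higher. The cell cycle list, for comparison, had 3 higher and 3 lower of 23 and a median of 0.07.

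**Figure D4:**
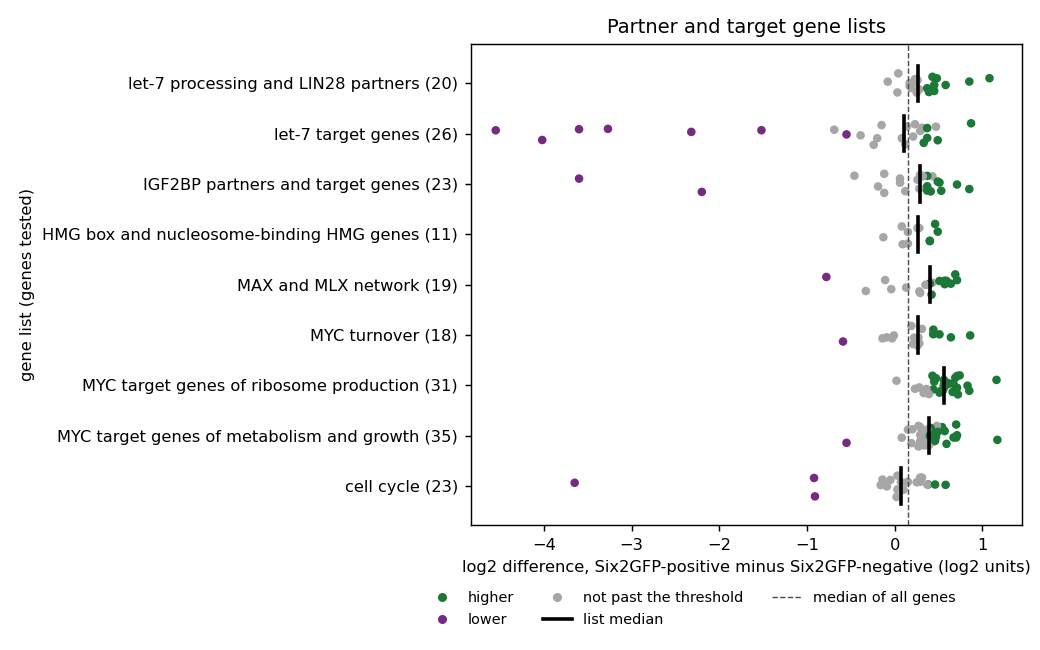
Log2 difference, Six2GFP-positive minus Six2GFP-negative, of each gene in the partner and target lists and in the cell cycle list; green points were called higher, purple lower and grey neither, black bars are list medians and the dashed line is the median of all genes, 0.15. The bar of ribosome production stands at 0.56, and that of the cell cycle list at 0.07.

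Genes that varied most like the members over the 4 arrays were ranked by Euclidean distance of log2 values centred on each probe's mean. The 5 probes nearest to Myc were 2 of Slc16a3, the lactate transporter gene, at distances of 0.035 and 0.081, and those of Garem2 (0.041), Rimkla (0.102) and Tent5b (0.103). Nearest to the brighter Lin28b probe were Esrp1, an epithelial splicing factor gene (0.052), Cyp4b1-ps2 (0.074), Rassf2 (0.076) and Tshr, the thyrotropin receptor gene (0.076). The measure covers 4 arrays alone and is a description.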

How the data were processed

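Total RNA from sorted cells was labelled with Cy3, per the labels' protocols. The authors' deposited scanner files hold linear intensity values from Agilent Feature Extraction 10.7.3.1 (design 026655, mm9), detrended within arrays and not normalized between them, per the file headers; the other deposited columns used are flags of 0 or 1. The deposited series table holds the same intensity values, of which 99.8% lay within 0.01 log2 on each array, so it is neither centred nor rescaled. No test by the authors is named in these sources.

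Control and outlier spots were left out, spots of a probe averaged, and log2 of the processed signal taken minus the array's 75th percentile (intensity 1511 and 1483 on the positive arrays, 1710 and 1693 on the negative arrays). Between 72.5% and 79.1% of spots were well above background and none was saturated; 2 arrays per group limit the precision. A probe was fitted when 1 group or more had it well above background on each array, using limma 3.58.1 in R 4.3.3 (lmFit, eBayes; two-sided), checked on simulated data. Accessions named 26034 probes in the RefSeq table (GRCm38.p6) and symbols 4117. The members and gene lists were chosen with earlier results of these data known. Named genes were all members, Six2, Cited1 and, per partner or target list, the 2 largest called differences in each direction without overlap, plus the 5 probes nearest to the member with the largest difference each way, of which 1 is not reported here; exceptions are marked. As alternatives, arrays were centred on the median or quantile normalized, or corrected by normexp (offset 50) with either scaling; others were the series table, no filter, a filter on all 4 arrays, a robust variance with an intensity trend, a block for the replicate number, the mean of a gene's probes for the lists, and leaving out each array. All arrays shared 1 slide and 1 scan time.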

Additional observations from a re-analysis of the deposited data

How the results depend on the processing

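Myc, Mycl1, the brighter Lin28b probe and 1 Hmga2 probe kept direction and call in all 13 alternatives. Of the 15 member probes, 4 were higher and 4 lower; without 1 array 2 to 3 were higher and 3 lower. The replicate numbers are shared by titles alone; their deviations correlated at 0.221 across groups, and with the replicate number as a block 4 member probes were higher and 3 lower, Igf2bp3 missing the threshold (-0.35, adjusted p = 0.0545), with 6236 probes higher and 5435 lower in all. Differences that turned sign were uncalled as reported: with 1 array left out, Lin28a (-0.07 to 0.21), the Hmga1 probes (-0.07 to 0.16, and -0.02 to 0.09), Igf2bp1 (-0.21 to 0.10) and Mycn (-0.24 to 0.17), the brightest Hmga1 probe -0.30 and -0.33 with quantile normalization without and with normexp, and Igf2bp1 0.21 and Mycn 0.23 with the array median. Centring on the array median raised the median over all probes from 0.17 to 0.44 and gave 14693 probes higher, 76.3% of calls against 55.8%, and 133 listed genes higher. Without a filter 3792 probes (44.6% of calls) and 38 listed genes were higher; normexp with quantile normalization gave 16 listed genes lower. With 1 array left out 1838 to 2740 probes (30.9% to 42.3% of calls) and 9 to 17 listed genes were higher and 6 to 9 listed genes lower, against 6810, 79 and 10. No named related gene turned sign, and 6 of 22 stayed called whichever array was left out. The dim Lin28b probe, 1 of the 4 member probes called lower, was near background and is limited by signal. With a filter on all 4 arrays it was not tested, and of 14 member probes 4 were higher and 3 lower.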

Other observations

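A probe for Hmga2-ps1, a processed pseudogene of Hmga2, was looked at after the values were seen and lies outside the 10 genes. It read -3.14 and -3.41 on the positive arrays against -2.65 and -2.83 on the negative arrays, a difference of -0.53 ± 0.14 (limma adjusted p = 0.0489), opposite in sign to both Hmga2 probes. The probe for Mycs, a further Myc-related gene, was not well above background on any array and was not tested.

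Among the 128 tested probes that hold the let-7 seed match, of which 1 is a member, 37 were higher and 16 lower in Six2GFP-positive cells. Of all 30012 probes tested, 6810 (22.7%) were higher and 5400 (18%) lower. No test of these probes as a set was made, and a part of let-7 in their values was not tested.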
